A study of Schizosaccharomyces pombe with 12 samples.

Results

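The genes described here are fep1 and the 9 iron and heme uptake genes of fission yeast (Schizosaccharomyces pombe) that go with it: frp1, fio1, fip1, sib1, sib2, str1, str2, str3 and shu1. They were taken by their PomBase names, matched to the gene identifiers of the count table, and make up 10 of the 12683 genes listed there. All 10 had enough reads to enter the test, which covered 8166 genes. PolyA RNA was sequenced from a strain labelled as deleted for ubp16, a strain labelled as deleted for ubp8 and the wild type 972 (WT), each after 30 min in 1 mM hydrogen peroxide (treated) and without it (untreated). All strains grew in rich YE5S medium at 30 °C to an OD600 of 0.5, with 2 libraries in each of the 6 groups, and the labels give neither an iron supplement nor an iron chelator for any group. Nothing in the labels ties the 2 libraries of a group to separate cultures, so p-values measure only the spread between these libraries, which may be technical. Ubp8 and Ubp16 are ubiquitin-specific proteases, and Ubp8, as part of the SAGA coactivator, removes ubiquitin from histone H2B.

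Fission yeast takes up iron through a reductive pathway, in which a ferric reductase is followed by a ferroxidase and its permease, and through siderophores, small iron chelators that the cell makes, releases and takes back. It can also take up heme. Fep1 is a GATA-type repressor that binds the promoters of these genes when iron is plentiful and leaves them when iron is scarce, while Php4, working with the CCAAT-binding factor, represses fep1 itself and the genes of iron-using proteins when iron is scarce.

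The sequences upstream of the genes are shown because Fep1 is known to recognise GATA words in the promoters of its targets. They were read from the RefSeq genome ASM294v3 and its annotation, on the strand of each gene, 5′ to 3′, with coordinates that do not come from the count table. A pair of words, ATCAGATAA and ATCTGATAA, was searched on both strands, each of which contains the shorter core AGATAA or TGATAA. In the 1000 bases before the start codon, 8 of the 10 genes held at least 1 of these words, against 3.85% (197) of 5112 coding genes of the same window length. In a window of 250 bases before to 50 bases after the annotated transcript start they were in 6 of the 10 genes and in 1.15% of all. The short cores were common, with AGATAA in 24.3% and TGATAA in 26.8% of all start windows, as was CCAAT, in 42.2% of all windows and in 4 of the 10 genes. Every match in the longer window is printed below with 10 bases on each side, the word in capitals.
shu1 at 122 bases before the start codon, chrI:86390-86418, minus strand: tatcaagataATCAGATAAtttagcttaa
shu1 at 627 bases, chrI:86895-86923, minus strand: cacaatatccATCTGATAAgtaaaatcgt
str3 at 643 bases, chrI:90892-90920, minus strand: gacgttggcaATCTGATAAtttaagacaa
str2 at 49 bases, chrIII:1442033-1442061, minus strand: ttgctatacgATCTGATAAtttgtgttgg
str1 at 865 bases, chrII:2704640-2704668, plus strand: gctgccgaccATCAGATAAttcttatttt
str1 at 488 bases, chrII:2705017-2705045, plus strand: atctggatacTTATCAGATcatcagatat
frp1 at 325 bases, chrII:162470-162498, minus strand: aatttggttgATCTGATAAcgcatcaaga
frp1 at 617 bases, chrII:162762-162790, minus strand: actttagctcATCAGATAAaaaatagact
fio1 at 795 bases, chrI:4234826-4234854, plus strand: tctggattacATCTGATAActtttgtcca
fip1 at 340 bases, chrI:4234826-4234854, minus strand: tggacaaaagTTATCAGATgtaatccaga
sib1 at 458 bases, chrI:869975-870003, minus strand: atctctatcgATCTGATAAatataaggtg

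The words shown for fio1 and fip1 are 1 and the same site, read from either strand, since these genes are transcribed away from each other from starts 303 bases apart. No match was found for fep1 and sib2 in this window, which says only that these letters are not there. The annotated leader of fep1, the transcribed part before its start codon, is 1348 bases long. For fep1 the 1000 bases thus lie wholly within the transcript and hold no base before its start. The window around the transcript start held neither word in fep1 or sib2. The leader of str1 is 866 bases long. Its word at 488 bases lies within that leader, and its word at 865 bases spans the transcript start. sib1 and sib2 are also transcribed away from each other, from starts 1108 bases apart. The 250 bases before the transcript starts of shu1, which spanned the widest range, of fio1, which shares them with fip1, of frp1, and of sib2, which holds no long word, follow, with each short core on either strand in capitals, as AGATAA and its form AGATAT, or the core TGATAA with its form TGATAT, and with the longer words. Matches that overlap run together, as in shu1.
shu1, chrI:86279-86528, minus strand: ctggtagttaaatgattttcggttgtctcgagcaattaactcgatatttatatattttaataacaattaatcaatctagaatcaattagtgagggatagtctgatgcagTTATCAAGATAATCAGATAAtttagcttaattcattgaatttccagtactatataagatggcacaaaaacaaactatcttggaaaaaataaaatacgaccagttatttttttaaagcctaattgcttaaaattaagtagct
fio1, chrI:4234822-4235071, plus strand: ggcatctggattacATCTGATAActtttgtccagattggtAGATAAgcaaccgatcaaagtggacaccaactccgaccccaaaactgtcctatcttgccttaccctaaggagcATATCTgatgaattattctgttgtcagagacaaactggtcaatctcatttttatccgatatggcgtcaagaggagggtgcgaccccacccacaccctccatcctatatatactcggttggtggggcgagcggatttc
frp1, chrII:162393-162642, minus strand: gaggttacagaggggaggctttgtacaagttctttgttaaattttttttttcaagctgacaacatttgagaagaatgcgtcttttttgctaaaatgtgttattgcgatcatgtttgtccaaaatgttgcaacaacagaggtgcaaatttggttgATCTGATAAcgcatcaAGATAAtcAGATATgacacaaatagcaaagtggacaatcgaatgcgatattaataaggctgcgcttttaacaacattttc
sib2, chrI:870543-870792, plus strand: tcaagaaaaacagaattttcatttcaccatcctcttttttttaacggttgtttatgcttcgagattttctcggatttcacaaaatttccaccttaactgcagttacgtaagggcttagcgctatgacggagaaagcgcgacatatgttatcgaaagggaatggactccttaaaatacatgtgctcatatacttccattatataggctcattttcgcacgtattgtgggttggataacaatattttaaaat

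**Figure D1:**
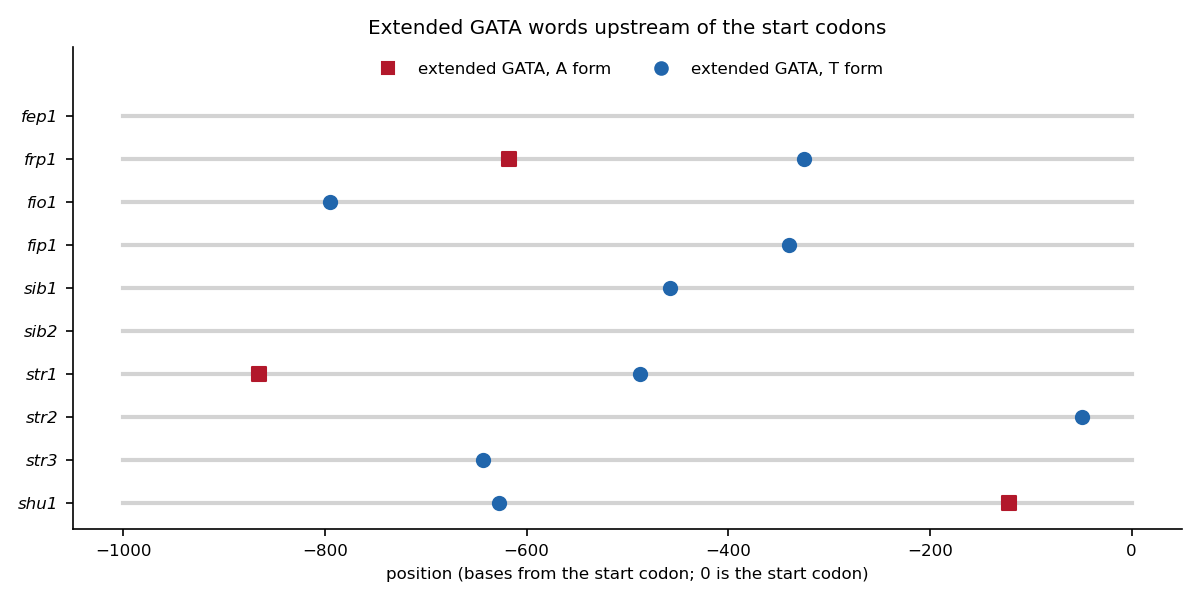
Position of each extended GATA word in the 1000 bases before the start codon of the 10 genes, in bases from the start codon on the horizontal axis. Squares are ATCAGATAA (A form) and circles ATCTGATAA (T form), on either strand; fep1 and sib2 have none, and the site nearest a start codon is that of str2, at 49 bases.

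Libraries held 9904056 to 14054746 counts. Levels are given as CPM, counts scaled by library size and TMM factor, on which scale 3 counts came to 0.185 to 0.316 CPM depending on the library, a floor that covers counting error only. The targeted genes were checked first. The ubp16 transcript had 22.2 and 24.95 CPM in untreated ubp16 cells, against 46.7 and 54.3 CPM in untreated WT cells, and ubp8 had 9.49 and 8.34 CPM in untreated ubp8 cells, against 33.9 and 34.1 CPM in untreated WT cells. Within each condition both were lowest in their own mutant, but ubp16 stood at 46.5% and ubp8 at 26.2% of its untreated WT level. The ubp16 transcript was also called lower in untreated ubp8 cells than in untreated WT cells. There the median log2 difference of the 2 genes was -1.29, and with library totals as scaling 1 of the 2 was called lower. Which part of each gene was removed was not tested, so ubp16 and ubp8 cells are named here by their labels. A count for a whole gene holds no position of its reads. Untreated ubp16 libraries were the least alike: 4.43% of 5731 genes with a mean of at least 50 counts differed over 1.5-fold between them, against 1.41% to 2.7% in the other groups. Replicate 1 had the higher level for 8 of the 9 uptake genes in each of the 3 untreated groups, with a median ratio over replicate 2 of 1.39 in ubp16, 1.23 in ubp8 and 1.20 in WT. Counts are shares of the RNA of a culture, so fewer cells with a transcript and less of it per cell cannot be told apart.

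Transcript of the repressor gene fep1 (SPAC23E2.01, chrI:442221-445721, plus strand) fell with peroxide in all 3 strains and fell furthest in ubp16. Its level was 15.7 and 10.4 CPM in treated ubp16 cells, against 57.8 and 49.5 CPM in untreated ubp16 cells. In ubp8 it was 20.5 and 20.9 CPM in treated cells, against 49.0 and 46.6 CPM in untreated cells. In WT it was 31.2 and 35.0 CPM in treated cells, against 60.5 and 66.8 CPM in untreated cells. From high to low the groups ran untreated WT, untreated ubp16, untreated ubp8, treated WT, treated ubp8 and treated ubp16. Neighbours in this order did not overlap, but untreated ubp16 and ubp8 were close and the test did not call them different (adjusted p = 0.317). The log2 change was -2.04 ± 0.16 (SE) in ubp16 (adjusted p = 1.63e-08), -1.21 ± 0.14 in ubp8 (adjusted p = 2.68e-06) and -0.94 ± 0.14 in WT (adjusted p = 2.94e-05). The fall in ubp16 was larger than in WT by -1.09 ± 0.21 (adjusted p = 0.00108), a difference that passed in each alternative fit and without any 1 library, and larger than in ubp8 by -0.83 ± 0.21 (adjusted p = 0.0122). This second difference did not pass without either treated ubp8 library or without replicate 2 of treated ubp16, where it was -0.47.

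**Figure D2:**
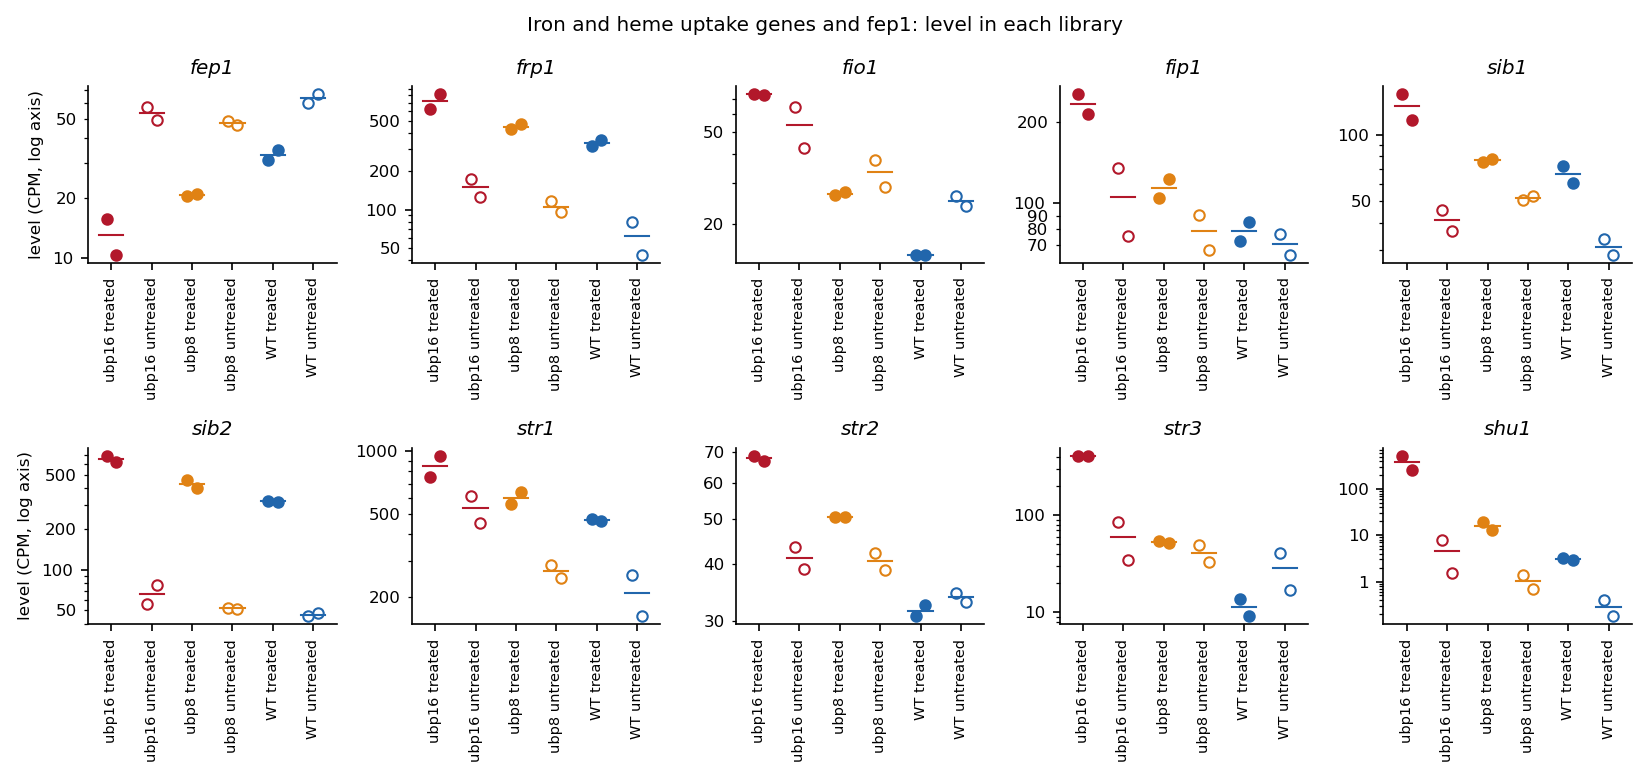
Level of fep1 and the 9 uptake genes in each library, in CPM on a log axis of its own for each gene; points are libraries (filled treated, open untreated) and lines are means of the 2 libraries. Treated ubp16 libraries have the lowest fep1, at 10.4 and 15.7 CPM, and the highest level of every uptake gene.

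In the reductive pathway the reductase gene and the ferroxidase gene parted in WT. Frp1 is the cell-surface ferric reductase that turns ferric into ferrous iron (frp1, SPBC1683.09c, chrII:160357-162392, minus strand). Its transcript reached 626 and 818 CPM in treated ubp16 cells, against 175 and 126 CPM in untreated ubp16 cells. It stood at 432 and 472 CPM in treated ubp8 cells, against 116 and 94.8 CPM in untreated ubp8 cells. The WT values were 317 and 352 CPM treated, against 79.7 and 43.8 CPM untreated. It rose in each strain without overlap, by 2.26 ± 0.21 in ubp16, 2.10 ± 0.21 in ubp8 and 2.44 ± 0.22 in WT (adjusted p = 1.8e-07, 4.11e-07 and 9.14e-08), and neither mutant's rise was called different from that of WT, with differences of -0.18 ± 0.29 and -0.34 ± 0.30 (adjusted p = 0.693 and 0.462).

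Fio1 is the multicopper ferroxidase and Fip1 the iron permease with which it works. The ferroxidase gene fio1 (SPAC1F7.08, chrI:4235072-4237874, plus strand) had 73.4 and 72.9 CPM in treated ubp16 cells, against 64.5 and 42.5 CPM in untreated ubp16 cells. Treated ubp8 cells had 26.5 and 27.4 CPM and untreated ubp8 cells 37.9 and 28.9 CPM. Treated WT cells had 14.6 CPM in both libraries and untreated WT cells 26.3 and 23.8 CPM. Thus fio1 fell in WT (-0.77 ± 0.19, adjusted p = 0.00254), was not called in ubp8 (-0.31 ± 0.17, adjusted p = 0.134) and rose in ubp16 (0.44 ± 0.16, adjusted p = 0.0283). The rise in ubp16 did not pass without replicate 2 of untreated ubp16 (0.18), without either treated ubp16 library, with library totals as scaling (0.18) or in a fit of the ubp16 libraries alone (0.42), whereas the difference between the ubp16 and WT responses (1.22 ± 0.25, adjusted p = 0.00161) passed in every fit tried.

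The permease gene fip1 (SPAC1F7.07c, chrI:4232998-4234768, minus strand) had 254 and 214 CPM in treated ubp16 cells, against 135 and 75.8 CPM in untreated ubp16 cells. In ubp8 it had 105 and 123 CPM in treated cells and 90.3 and 67.3 CPM in untreated cells, and in WT 72.2 and 85.5 CPM in treated cells and 77.0 and 64.4 CPM in untreated cells. WT libraries of both conditions overlapped, and the change there was 0.16 ± 0.21 (adjusted p = 0.548). fip1 rose by 1.14 ± 0.20 in ubp16 (adjusted p = 0.000152) and by 0.53 ± 0.20 in ubp8 (adjusted p = 0.0363), the second of which did not pass in DESeq2 (0.52), with library totals (0.21), with coding genes only (0.42), without replicate 2 of untreated ubp8 (0.33) or without either treated ubp8 library (0.55 and 0.32). Although fio1 and fip1 share the stretch between their starts, the count of fip1 over that of fio1 moved with treatment, at 3.46 and 2.94 in treated ubp16 against 2.09 and 1.78 untreated, 3.94 and 4.48 in treated ubp8 against 2.38 and 2.33 untreated, and 4.94 and 5.86 in treated WT against 2.93 and 2.71 untreated.

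Of the siderophore synthesis genes, sib2 rose far more than sib1 in every strain. Sib2 is the ornithine monooxygenase of the first step of ferrichrome synthesis and Sib1 the nonribosomal peptide synthetase that assembles this siderophore. The sib2 transcript (SPAC23G3.03, chrI:870793-872773, plus strand) had 691 and 617 CPM in treated ubp16 cells, against 55.7 and 77.3 CPM in untreated ubp16 cells. Treated ubp8 cells had 460 and 396 CPM and untreated ubp8 cells 52.5 and 51.3 CPM. Treated WT cells had 320.3 and 317 CPM and untreated WT cells 45.2 and 47.7 CPM. Treated and untreated libraries lay far apart in each strain, and the rises were 3.30 ± 0.14, 3.05 ± 0.13 and 2.78 ± 0.14 in ubp16, ubp8 and WT (adjusted p = 2.96e-11, 5.84e-11 and 9.38e-11).

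The sib1 transcript (SPAC23G3.02c, chrI:854453-869684, minus strand) had 153 and 116 CPM in treated ubp16 cells, against 45.7 and 36.5 CPM in untreated ubp16 cells. In ubp8 it had 75.3 and 77.9 CPM treated and 50.5 and 52.9 CPM untreated, and in WT 72.5 and 60.4 CPM treated and 33.8 and 28.6 CPM untreated. It rose by 1.71 ± 0.14 in ubp16 (adjusted p = 3.52e-08), 0.57 ± 0.14 in ubp8 (adjusted p = 0.00224) and 1.09 ± 0.15 in WT (adjusted p = 8.59e-06). Scaling by library totals left the ubp8 rise at 0.24 and not called. The rise in ubp16 exceeded that in ubp8 by 1.14 ± 0.19 (adjusted p = 0.000786), which passed in every fit tried and without any 1 library. sib2 reads outnumbered sib1 reads 4.53 and 5.30 times in treated ubp16 cells, 6.11 and 5.09 times in treated ubp8 cells and 4.42 and 5.24 times in treated WT cells, against 0.97 to 2.12 times in untreated libraries.

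Among the siderophore transporter genes, str1 rose in all 3 strains, str2 rose most clearly in ubp16, and str3 rose in ubp16 and fell in WT. Str1 takes up ferrichrome. The str1 transcript (SPBC4F6.09, chrII:2704657-2707648, plus strand) had 752 and 953 CPM in treated ubp16 cells, against 609 and 456 CPM in untreated ubp16 cells. In ubp8 it had 558 and 635 CPM treated and 287 and 247 CPM untreated, and in WT 472 and 463 CPM treated and 257 and 162 CPM untreated. Its rise was 0.68 ± 0.18 in ubp16 (adjusted p = 0.00481), 1.16 ± 0.18 in ubp8 (adjusted p = 5.04e-05) and 1.16 ± 0.18 in WT (adjusted p = 5.03e-05). The ubp16 rise was 0.51 and not called without replicate 2 of treated ubp16, and 0.41 and not called with library totals. It started from a higher untreated level than the other strains had, and its size was not called different from that in WT (-0.48 ± 0.26, adjusted p = 0.185).

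Str2 is another siderophore transporter of the same family. The str2 transcript (SPCC61.01c, chrIII:1435212-1442015, minus strand) had 68.9 and 67.1 CPM in treated ubp16 cells, against 43.6 and 39.0 CPM in untreated ubp16 cells. In ubp8 it had 50.5 and 50.7 CPM treated and 42.3 and 38.8 CPM untreated, and in WT 30.7 and 32.6 CPM treated and 34.6 and 33.1 CPM untreated. The rise was 0.72 ± 0.10 in ubp16 (adjusted p = 1.48e-05). In ubp8 a value of 0.32 ± 0.10 passed (adjusted p = 0.0126), but it was -0.003 with library totals and did not pass with no filter (0.23), without replicate 2 of untreated ubp8 (0.26) or without either treated ubp8 library (0.23 each), and the WT value was -0.10 ± 0.11 (adjusted p = 0.479). The difference between the ubp16 and WT responses, 0.81 ± 0.15 (adjusted p = 0.000616), passed in every fit. The reference gives this gene a trailer of 4877 bases that runs opposite rpl6, apn1 and jmj4, and rpl6 had 190194 counts over the 12 libraries against 6310 for str2. The strand setting of the counting was not given in the sources used here, although the library kit keeps strand, and the part of these opposite genes in the str2 count was not tested.

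Transcript of str3 (SPAC1F8.03c, chrI:88201-90289, minus strand), for a siderophore transporter that has also been tied to heme uptake, moved in opposite directions in ubp16 and WT. It had 411 and 405 CPM in treated ubp16 cells, against 85.6 and 34.4 CPM in untreated ubp16 cells. Treated ubp8 cells had 53.7 and 51.8 CPM and untreated ubp8 cells 49.7 and 32.6 CPM. Treated WT cells had 13.6 and 9.08 CPM and untreated WT cells 40.3 and 17.0 CPM. The treated libraries of the 3 strains stood far apart, whereas the untreated libraries of ubp16, ubp8 and WT overlapped. str3 rose by 2.75 ± 0.33 in ubp16 (adjusted p = 3.08e-06), was not called in ubp8 (0.36 ± 0.34, adjusted p = 0.387) and fell in WT (-1.33 ± 0.43, adjusted p = 0.0153). The WT fall rested in part on replicate 1 of untreated WT, without which it was -0.59 and not called, and it was -1.05 without replicate 2 of treated WT and -1.21 in limma-voom, not called in either. The ubp16 response exceeded that of WT by 4.08 ± 0.53 (adjusted p = 3.44e-05) and that of ubp8 by 2.39 ± 0.47 (adjusted p = 0.00219), and both differences passed in every fit and without any 1 library. The ubp8 response exceeded that of WT by 1.69 ± 0.55 (adjusted p = 0.0438), which did not pass in DESeq2 (1.67), in limma-voom (1.61), with library totals (1.58) or without replicate 1 of untreated WT (0.95). It was also lost without either treated WT library, either treated ubp8 library or replicate 2 of untreated ubp8 (1.33 to 1.90).

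Shu1 is a cell-surface protein that binds heme and serves its uptake, and its transcript (shu1, SPAC1F8.02c, chrI:85566-86278, minus strand) spanned the widest range of the 10. It had 530 and 255 CPM in treated ubp16 cells (5763 and 2550 counts), against 7.79 and 1.55 CPM in untreated ubp16 cells (110 and 16 counts). Treated ubp8 cells had 19.5 and 13.0 CPM (266 and 142 counts) and untreated ubp8 cells 1.365 and 0.680 CPM (21 and 11 counts). Treated WT cells had 3.26 and 2.86 CPM (31 and 29 counts) and untreated WT cells 0.391 and 0.177 CPM (4 and 2 counts). The untreated WT counts lay near the floor of 3 counts. From high to low the groups ran treated ubp16, treated ubp8, then untreated ubp16 and treated WT, which overlapped, then untreated ubp8 and untreated WT. shu1 rose by 6.28 ± 0.41 in ubp16 (adjusted p = 2.58e-09), by 4.002 ± 0.58 in ubp8 (adjusted p = 2.3e-05) and by 3.41 ± 1.22 in WT (adjusted p = 0.0266). The WT value rested on 60 counts in treated against 6 in untreated libraries, a ratio of 11 with an exact 95% interval of 4.76 to 31.1 that covers counting error only. It was not called in limma-voom (3.33) or without any of the 4 WT libraries in turn (2.94 to 4.04), and the responses of the strains were not called different, at 2.87 ± 2.12 for ubp16 over WT (adjusted p = 0.345) and 2.28 ± 0.95 for ubp16 over ubp8 (adjusted p = 0.102). The RNA annotated opposite shu1 had 10 and 8 counts in the treated ubp16 libraries.

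Per length of transcript the order of the genes changed with the strain and treatment. In TPM, levels scaled by annotated exon length and by library, shu1 had 840 and 389 TPM in treated ubp16 cells, the most of the 10 genes in replicate 1 but less than frp1 in replicate 2. frp1 had 348 and 437 TPM, sib2 409 and 351 TPM, str1 284 and 346 TPM and str3 222 and 211 TPM. fip1 followed at 162 and 131 TPM, and fio1, str2, sib1 and fep1 were lower, the last at 5.08 and 3.23 TPM. In treated WT cells frp1, sib2 and str1 were close together, at 159 and 167, 172 and 161, and 162 and 150 TPM, while shu1 stood at 4.68 and 3.89 TPM. Untreated WT cells had str1 at the top, at 99.7 and 56.7 TPM, and shu1 at the bottom, at 0.636 and 0.259 TPM. The permease exceeded the ferroxidase per length in every library, for example with 162 and 131 TPM of fip1 against 29.6 and 28.3 TPM of fio1 in treated ubp16 cells.

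Across the responses to peroxide, fep1 fell and 9 of 9 uptake genes rose in ubp16, where 25.2% of all genes tested were called higher, 25.2% lower and 50.3% in either direction. In ubp8 fep1 fell, 7 uptake genes rose and 2 (fio1 and str3) were not called, beside 28% of all genes higher, 25.8% lower and 53.8% either way. In WT fep1 fell, 5 uptake genes rose (frp1, sib1, sib2, str1 and shu1), 2 fell (fio1 and str3) and 2 (fip1 and str2) were not called, beside 26.2% higher, 27% lower and 53.2% either way. The median log2 change of the 9 uptake genes was 1.71 in ubp16, 0.57 in ubp8 and 1.09 in WT, while the median over all tested genes was -0.05, -0.06 and -0.04. With so large a share of all genes called in each response, a call by itself says little about a single gene, and sizes differed widely among the 9. Of the 10 calls in ubp16, 8 passed in each fit and without any 1 library (all but fio1 and str1), as did 5 of 8 in ubp8 (fep1, frp1, str1, sib2 and shu1) and 6 of 8 in WT (fep1, fio1, frp1, str1, sib1 and sib2).

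**Figure D3:**
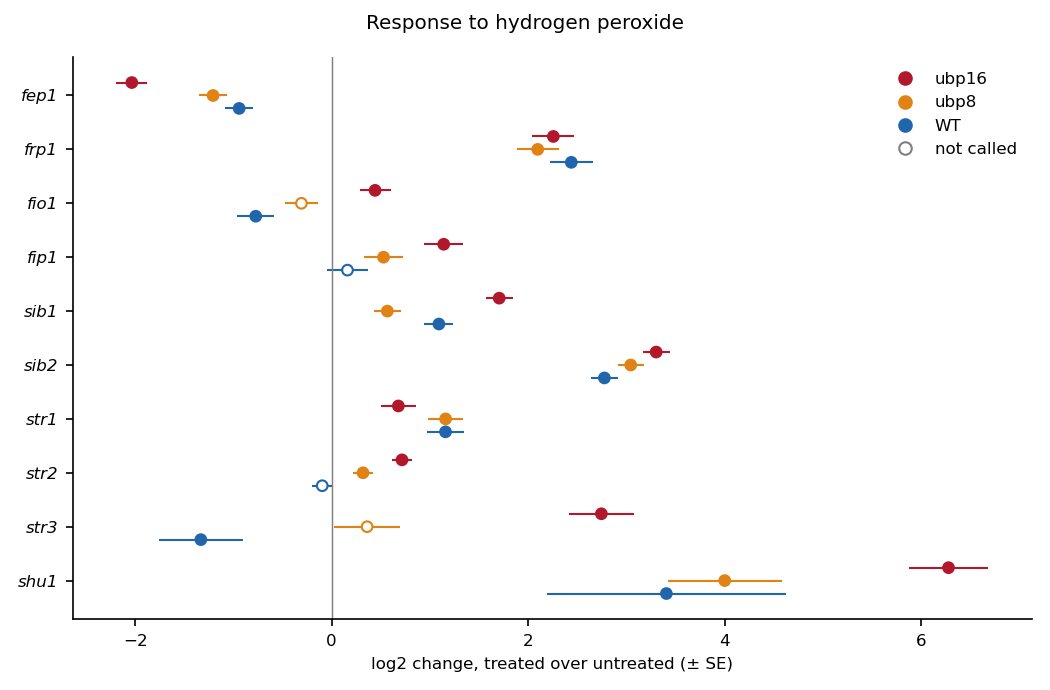
Log2 change with peroxide of each gene, treated over untreated, in ubp16 (red), ubp8 (orange) and WT (blue), with SE as bars; open circles were not called at an adjusted p of 0.05. The strains lie close together for frp1 and sib2 and far apart for str3, at 2.75, 0.36 and -1.33.

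Among treated cells the mutants were compared with WT directly. Every uptake gene was higher in treated ubp16 cells than in treated WT cells and fep1 was lower, with no overlap of libraries for any of the 10. Of all genes tested, 38.8% were higher and 39.1% lower without overlap, 77.9% in all, so separation by itself marks few genes out. In the test 28.7% of all genes were called higher, 26.5% lower and 55.2% either way. The heme and siderophore uptake genes shu1 (7.0 ± 0.45, adjusted p = 2.64e-09) and str3 (5.18 ± 0.40, adjusted p = 2.5e-08) led, followed by the ferroxidase gene fio1 (2.32 ± 0.18, adjusted p = 2.45e-08) and the permease gene fip1 (1.57 ± 0.21, adjusted p = 7.71e-06). The other 5 were higher by 0.87 to 1.11, and fep1 was lower by -1.34 ± 0.16 (adjusted p = 3.3e-06). All 10 calls passed in each fit and without any 1 library. By counts alone treated ubp16 cells had 130 times the shu1 of treated WT cells (exact 95% interval 101 to 171). This interval covers counting error only, and the 2 treated ubp16 libraries themselves differed 2.08-fold in shu1.

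In treated ubp8 cells the differences from WT ran the same way and were smaller. Libraries did not overlap for any of the 9 uptake genes, all higher in ubp8, or for fep1, lower in ubp8, as they did not for 68.9% of all genes (36.3% higher and 32.6% lower). The test called 5 uptake genes and fep1, where 16.6% of all genes were called higher, 15.7% lower and 32.3% either way. shu1 (2.42 ± 0.53, adjusted p = 0.00254), str3 (2.23 ± 0.41, adjusted p = 0.000703), fio1 (0.88 ± 0.19, adjusted p = 0.00208), str2 (0.68 ± 0.10, adjusted p = 0.000178) and sib2 (0.43 ± 0.12, adjusted p = 0.0143) were called higher and fep1 lower (-0.68 ± 0.15, adjusted p = 0.00294). The sib2 call did not pass without replicate 1 of treated ubp8 (0.28) or without either treated WT library. Values for fip1, frp1, str1 and sib1 were 0.53, 0.44, 0.35 and 0.21 (adjusted p = 0.0609, 0.115, 0.15 and 0.274).

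Set against each other, treated ubp16 cells had more transcript than treated ubp8 cells for 9 of 9 uptake genes and less of fep1 (-0.66 ± 0.17, adjusted p = 0.00438), where 22.3% of all genes were called higher, 21.3% lower and 43.6% either way. The largest differences were again in shu1 (4.58 ± 0.35), str3 (2.95 ± 0.34), fio1 (1.44 ± 0.17) and fip1 (1.04 ± 0.20), with adjusted p of 6.74e-08, 4.98e-06, 5.54e-06 and 0.000563. The calls of fep1, frp1 and str1 did not pass without replicate 2 of treated ubp16 (-0.37, 0.49 and 0.36). Those of frp1 and str1 were also lost in DESeq2 (0.71 and 0.55), with library totals (0.56 and 0.40) and without replicate 1 of treated ubp8 (0.65 and 0.46).

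**Figure D4:**
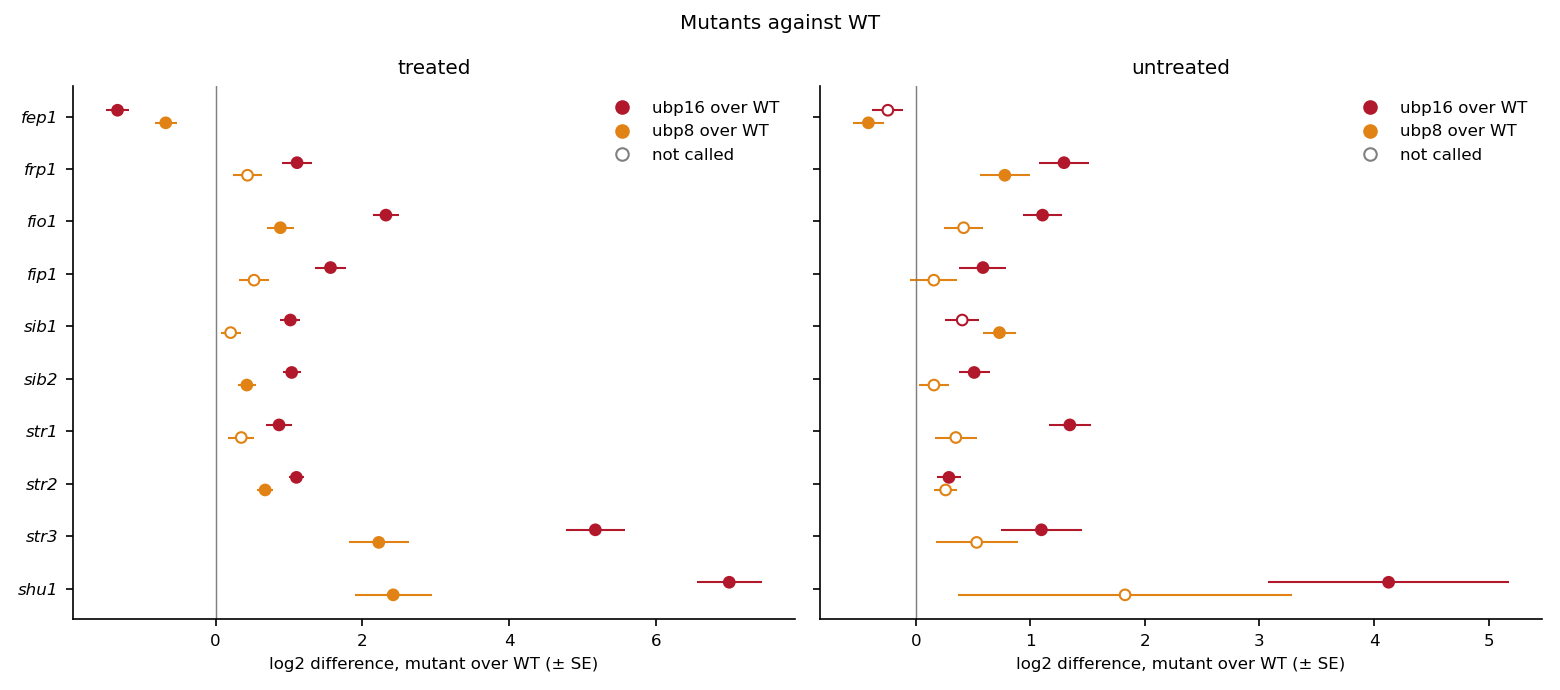
Log2 difference of each mutant from WT in treated cells (left) and untreated cells (right), with ubp16 in red and ubp8 in orange, SE as bars and open circles for genes not called; the panels have axes of their own. In treated cells ubp16 lies further from 0 than ubp8 for all 10 genes.

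Before treatment the uptake genes already stood higher in ubp16 than in WT, with less agreement between libraries. The differences were smaller than in treated cells except for str1 and frp1, which were 0.87 and 1.11 higher in treated cells. The test called 8 of the 9 uptake genes higher, where 14.3% of all genes were called higher, 11.3% lower and 25.6% either way. The calls of 3 genes passed in each fit and without any 1 library: str1 (1.35 ± 0.18, adjusted p = 5.03e-05), frp1 (1.29 ± 0.22, adjusted p = 0.000327) and fio1 (1.11 ± 0.17, adjusted p = 0.00014). shu1 (4.13 ± 1.05, adjusted p = 0.00865) and str3 (1.10 ± 0.36, adjusted p = 0.0319) did not pass without replicate 1 of untreated ubp16, where they were 2.44 and 0.28, or without replicate 2 of untreated WT, where they were 3.65 and 0.59. shu1 was not called in limma-voom (3.67) either, nor str3 in DESeq2 (1.06), with coding genes only or with the libraries of these groups only. fip1 (0.59) and str2 (0.29) were also called, but not with median-of-ratios factors, coding genes only, DESeq2 or limma-voom, nor without replicate 1 of untreated ubp16 (0.10 and 0.21) or either untreated WT library. ubp16 and WT libraries overlapped for fip1 and str3. sib2 (0.51) was called but lost without replicate 2 of untreated ubp16 (0.26) or replicate 1 of untreated WT (0.47). sib1 (0.41 ± 0.15, adjusted p = 0.0556) and fep1 (-0.24 ± 0.14, adjusted p = 0.215) were not called. By counts, shu1 was 18.5 times as high in untreated ubp16 as in untreated WT cells (exact 95% interval 8.29 to 51.5, from 126 and 6 counts). This interval covers counting error only, and 110 of the 126 counts came from replicate 1 of untreated ubp16.

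Untreated ubp8 and WT cells differed in 3 of the 10 genes, with frp1 (0.78 ± 0.22, adjusted p = 0.0111) and sib1 (0.73 ± 0.14, adjusted p = 0.00179) higher and fep1 lower (-0.41 ± 0.14, adjusted p = 0.0249), where 15.1% of all genes were called higher, 23.8% lower and 38.9% either way. sib1 alone passed in every fit and without any 1 library. frp1 was 0.47 and fep1 -0.27, neither called, without replicate 2 of untreated WT. frp1 was also lost without replicate 1 of untreated ubp8 (0.62) and in DESeq2 (0.76). The fep1 call was lost without either untreated ubp8 library (-0.45 and -0.38) and with library totals (-0.12). It failed too with coding genes only (-0.25) and with genes averaging 50 counts or more (-0.24). The other 7 had values of 0.16 to 1.83, the largest that of shu1 with an SE of 1.46. Between the mutants, untreated ubp16 cells had more str1 (1.00 ± 0.18, adjusted p = 0.000484), fio1 (0.69 ± 0.16, adjusted p = 0.0029), sib2 (0.35 ± 0.13, adjusted p = 0.0392) and shu1 (2.30 ± 0.71, adjusted p = 0.0159) than untreated ubp8 cells, 4 genes where 27.4% of all genes were called higher, 18.1% lower and 45.5% either way. str1 alone passed throughout. Without replicate 1 of untreated ubp16 the values were 0.61 for shu1 and 0.35 for fio1, without replicate 2 of untreated ubp8 they were 1.88 and 0.51, and none of these was called. sib2 was 0.10 without replicate 2 of untreated ubp16, and was also lost without either untreated ubp8 library. Both sib2 and shu1 were lost with coding genes only (0.14 and 2.10) and in limma-voom (0.32 and 1.99). The sib2 call also failed with library totals (0.16), genes averaging 50 counts or more (0.16) and the libraries of these groups only (0.30).

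Whether a mutant's response differed from that of WT was tested as an interaction of strain and treatment. In ubp16 the test called 6 uptake genes as rising more than in WT and fep1 as falling more, where 13% of all genes were called higher, 14.4% lower and 27.4% either way. fip1 (0.98 ± 0.29, adjusted p = 0.0182), sib1 (0.61 ± 0.20, adjusted p = 0.0322) and sib2 (0.53 ± 0.18, adjusted p = 0.0408) were called besides fio1, str2 and str3, but each was lost without replicate 1 of treated ubp16 (0.86, 0.41 and 0.45) or replicate 1 of untreated WT (0.85, 0.49 and 0.57). fip1 was also lost without replicate 1 of treated WT, sib1 without replicate 2 of treated WT or of untreated ubp16, and sib2 without any other WT library or replicate 1 of untreated ubp16 (0.30). In ubp8 str3 alone was called, where 10.5% of all genes were called higher, 6.34% lower and 16.8% either way. Between the mutants the test called fep1, fio1 (0.75 ± 0.23, adjusted p = 0.0306), str3 and sib1, where 7.31% of all genes were called higher, 13.7% lower and 21% either way. The fio1 value was 0.49 and not called without replicate 2 of untreated ubp16, and was also lost without replicate 1 of treated ubp16, of treated ubp8 or of untreated ubp8 (0.54 to 0.86).

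Neighbouring coding genes were read to see how far the changes ran along the chromosome, and they did not change alike. In the ubp16 response rpb2 beside sib1 (-0.07), mre11 beside fep1 (-0.11) and epe1 beside str2 (0.12) were not called. There ies4 beside sib2 fell (-0.54). Called higher were dal2 beside fio1 (0.80), mrpl39 and vps901 beside str1 (0.40 and 0.33), spt3 beside str2 (0.365) and lsd2 beside fep1 (0.33). shu1, str3 and hhy1 follow each other on 1 strand of chromosome I, with 1922 and 2097 bases between their transcripts. hhy1 rose by 5.44 ± 0.26 in ubp16 (adjusted p = 1.15e-10) and by 3.60 ± 0.30 in ubp8 (adjusted p = 4.5e-08) and was not called in WT (0.46 ± 0.46, adjusted p = 0.422), and in treated cells it was 7.68 ± 0.32 higher in ubp16 than in WT (adjusted p = 2.1e-11). On the other side of shu1 lies ght3, of a family of hexose transporters, in the opposite orientation. ght3 changed by 0.24 ± 0.18 in ubp16 (adjusted p = 0.274), 1.02 ± 0.21 in ubp8 (adjusted p = 0.000719) and 0.45 ± 0.28 in WT (adjusted p = 0.193), and was higher in ubp16 than in WT by 3.62 ± 0.23 in untreated cells and 3.41 ± 0.22 in treated cells (adjusted p = 7.79e-09 and 3.59e-09). ght4, of the same family and beside frp1, rose by 0.97, 0.76 and 0.54 in ubp16, ubp8 and WT, and was higher in ubp16 than in WT by 3.74 ± 0.18 in untreated cells (adjusted p = 5.07e-10). hsp3105, 440 bases beyond the end of fip1 and facing it, rose by 5.13 ± 0.40 in ubp16, 3.71 ± 0.41 in ubp8 and 2.28 ± 0.60 in WT (adjusted p = 2.29e-08, 1.05e-06 and 0.00407). frp1 and pcl1, which encodes a vacuolar iron transporter, lie 1141 bases apart on the same strand and moved in opposite directions. The count of frp1 over that of pcl1 was 62.5 and 56.1 in treated ubp16 cells, 21.8 and 22.1 in treated ubp8 cells and 10.2 and 9.26 in treated WT cells, against 0.19 to 1.05 in untreated libraries.

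Genes outside the 10 whose log2 CPM followed theirs most closely over the 12 libraries were taken from 4784 coding genes, by Pearson's r as a plain measure of likeness. The libraries are 2 from each of 6 groups, so these values describe likeness over the groups and nothing more. For fep1 they were pog1 (0.991), utp502 (0.987) and nat10 (0.985). sib2 went with srx1 (0.995), which encodes sulfiredoxin, with sdj1 (0.993) and with twf1 (0.993). frp1 went with pof14 (0.973), srx1 (0.969) and gpc1 (0.969). For shu1 they were mxr1 (0.975), a methionine sulfoxide reductase gene, sst2 (0.971) and atg2 (0.97).

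The rest of the iron pathway did not move as 1 block. Genes of iron-using enzymes, such as aconitases, succinate dehydrogenase and glutamate synthase, fell widely in ubp16: of 12 tested, 11 fell and 1 did not pass, with a median log2 change of -0.88. Both ubp8 and WT had 2 higher, 4 lower and 6 not called, with medians of -0.16 and -0.04. Of all genes tested, 25.2% were called lower in ubp16. In ubp8 28% were higher and 25.8% lower, and in WT 26.2% and 27%, so the 4 lower genes lie near these shares. glt1, for glutamate synthase, changed by -3.14 ± 0.13 in ubp16, -1.07 ± 0.11 in ubp8 and -0.75 ± 0.11 in WT (adjusted p = 2.96e-11, 7.69e-07 and 2.98e-05), and the biotin synthase gene bio2 by -2.08 ± 0.14 in ubp16 (adjusted p = 5.97e-09), with -0.21 ± 0.13 in ubp8 and 0.29 ± 0.13 in WT (adjusted p = 0.196 and 0.0745). sdh2, for the iron-sulfur subunit of succinate dehydrogenase, changed by -1.505 ± 0.15 in ubp16 (adjusted p = 3.61e-07). The response of 10 of the 12 was called lower in ubp16 than in WT, with a median of -0.99, beside 14.4% of all genes, while the median difference for ubp8 over WT was -0.02. In treated cells 9 of the 12 were lower in ubp16 than in WT, beside 26.5% of all genes, and 9 were lower in ubp8 than in WT, beside 15.7%. In untreated cells 9 were also lower in ubp8 than in WT, beside 23.8% of all genes, but 3 with library totals. The ubp16 counts kept their direction with median-of-ratios factors (11 lower in the response, 10 in the interaction) and with library totals (11 and 11), whereas library totals moved the ubp8 response to 9 lower.

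Regulators of iron genes were higher after peroxide or not called, but for 2 that fell in WT. Of 8 tested, 3 rose in ubp16, 5 rose in ubp8 and 3 rose and 2 fell in WT, with the others not called, beside 25.2%, 28% and 26.2% of all genes higher and 27% lower in WT, with medians of 0.21, 0.59 and 0.21, and with library totals 2 rose and 2 fell in ubp16. Untreated ubp8 cells had 6 of the 8 lower than untreated WT cells, beside 23.8% of all genes. With library totals 1 was called higher there and the rest were not called. php4, for the repressor subunit active under low iron, rose by 1.01 ± 0.10 in ubp16, 1.69 ± 0.10 in ubp8 and 1.70 ± 0.11 in WT (adjusted p = 5.26e-07, 1.47e-09 and 1.26e-09), less in ubp16 than in WT by -0.69 ± 0.15 (adjusted p = 0.00242). The CCAAT-binding subunit genes moved less: php3 rose by 0.31, 0.71 and 0.76 in ubp16, ubp8 and WT. php5 rose by 0.53 in ubp8 and had 0.22 in ubp16 and 0.16 in WT, not called, while php2 fell in WT (-0.43 ± 0.16, adjusted p = 0.0357) and had 0.20 in ubp16 and 0.12 in ubp8, not called. grx4, for a glutaredoxin that senses iron, rose by 0.66 ± 0.09 in ubp8 and 1.00 ± 0.09 in WT (adjusted p = 1.37e-05 and 1.1e-07), with 0.19 ± 0.09 in ubp16 (adjusted p = 0.0934), and fra2, of the same iron-sensing pathway, was called in no strain (-0.25, 0.16 and 0.26). Of the co-repressor genes, tup12 rose by 1.08 ± 0.11 in ubp16 and 0.76 ± 0.11 in ubp8 (adjusted p = 3.39e-07 and 1.77e-05), with 0.17 ± 0.11 in WT (adjusted p = 0.212), and tup11 fell in WT (-0.41 ± 0.10, adjusted p = 0.0026), with -0.16 in ubp16 and 0.06 in ubp8.

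Of the 5 remaining uptake and vacuolar genes pcl1 fell in all 3 strains and the others rose or were not called. pcl1, whose product moves iron into the vacuole, changed by -3.86 ± 0.17 in ubp16, -3.02 ± 0.15 in ubp8 and -2.54 ± 0.15 in WT (adjusted p = 4.47e-11, 1.92e-10 and 6.75e-10), and fell further in ubp16 than in WT (-1.32 ± 0.22, adjusted p = 0.000358). frp2, a relative of frp1, rose by 2.71 ± 0.24 in ubp16, 2.91 ± 0.22 in ubp8 and 3.23 ± 0.24 in WT (adjusted p = 6.86e-08, 1.21e-08 and 1.15e-08). abc3, for a vacuolar ABC transporter, rose by 1.13, 1.07 and 1.47, and abc4 by 0.57, 0.51 and 0.34 in ubp16, ubp8 and WT. sib3, for another enzyme of siderophore synthesis, rose by 0.37 in ubp8 and 0.32 in WT and had 0.15 in ubp16 (adjusted p = 0.215). In treated cells abc4 was higher and pcl1 lower in ubp16 than in WT, and pcl1 was lower in ubp8 than in WT, while frp2, sib3 and abc3 were not called in either mutant.

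Genes that supply copper to the ferroxidase, that make heme and that build iron-sulfur clusters went both ways. Several of the counts that follow lie near the shares of all genes, which were 25.2% higher and 25.2% lower in ubp16, 28% and 25.8% in ubp8, and 26.2% and 27% in WT. Of 6 copper genes, 2 rose and 3 fell in ubp16, 3 rose and 3 fell in ubp8, and 3 rose and 2 fell in WT; the copper transporter gene ctr4 changed by -1.18 ± 0.23, -2.25 ± 0.24 and -1.95 ± 0.23, and ctr6, for the vacuolar copper transporter, by 1.32 ± 0.11, 0.96 ± 0.11 and 0.98 ± 0.11. Of 8 heme synthesis genes, 3 rose and 1 fell in ubp16, 4 rose and 1 fell in ubp8, and 3 rose and 2 fell in WT. hem3, for an early step of heme synthesis, changed by -3.90 ± 0.17, -2.46 ± 0.15 and -2.80 ± 0.15 in ubp16, ubp8 and WT, and hem13, for a late step, by 1.46 ± 0.12, 1.05 ± 0.12 and 0.81 ± 0.12. Of 8 iron-sulfur assembly genes, 3 rose and 4 fell in ubp16, 5 rose and 2 fell in ubp8, and 3 rose and 2 fell in WT. With library totals the heme list had 1 higher and 3 lower in ubp16 and 1 higher and 2 lower in ubp8, and the assembly list 2 higher and 4 lower in ubp16 and 2 higher and 3 lower in ubp8. isa1, for an assembly factor, fell in all 3 strains (-2.68 ± 0.14, -1.58 ± 0.13 and -1.27 ± 0.13), and isu1, for the scaffold protein, rose in all 3 (0.69 ± 0.14, 1.62 ± 0.14 and 1.72 ± 0.15). In 5 of these 8 genes the ubp16 response was called lower than the WT response, beside 14.4% of all genes, with a median of -0.61 over the 8.

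**Figure D5:**
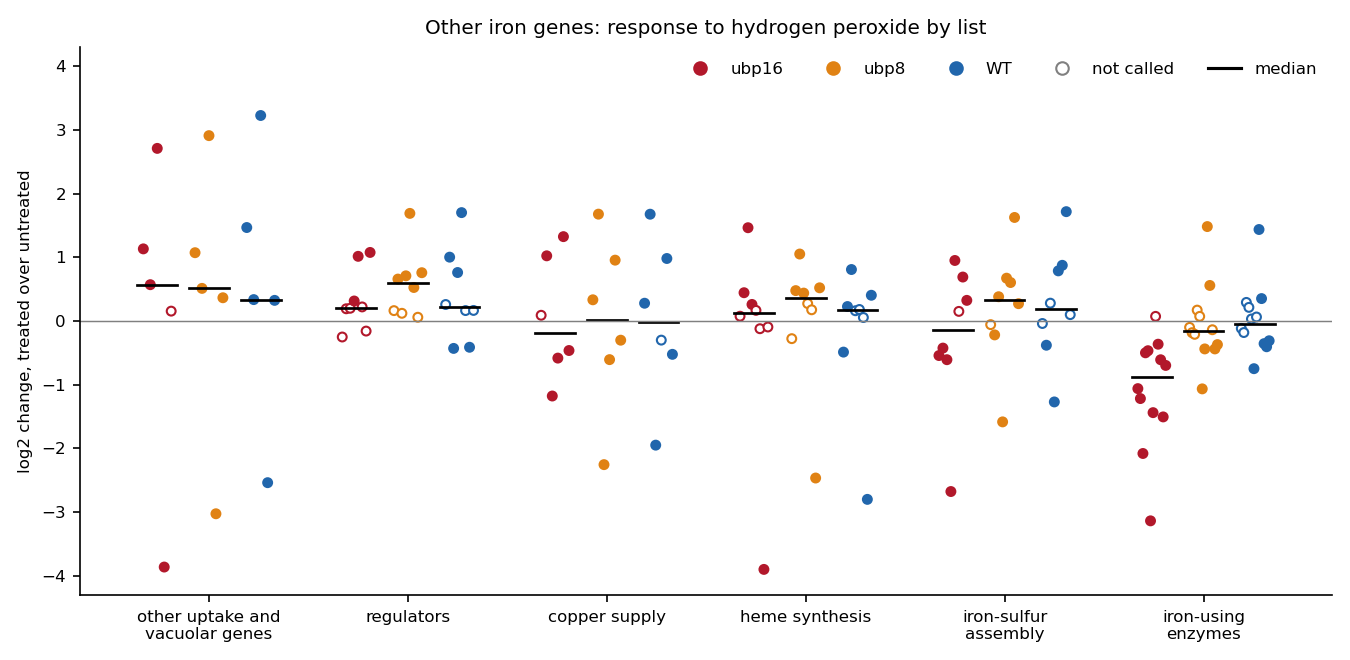
Log2 change with peroxide, treated over untreated, of the other iron genes grouped by list, with ubp16 in red, ubp8 in orange and WT in blue; filled circles were called, open circles not, and black lines are medians. Iron-using enzymes in ubp16 lie almost wholly below 0, with a median of -0.88.

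Mating-type markers were read because the labels give no mating type for the mutants. Summed over 5 genes, markers of M cells had 177 and 143 CPM in treated ubp16 cells, 57.9 and 55.5 CPM in treated ubp8 cells and 36.2 and 33.7 CPM in treated WT cells. Untreated they had 231 and 175 CPM in ubp16, 79.8 and 106 CPM in ubp8 and 67.2 and 56.2 CPM in WT. Markers of P cells, summed over 3 genes, had 43.8 and 32.5 CPM in treated ubp16 cells, 20.1 and 17.5 CPM in treated ubp8 cells and 10.2 and 8.49 CPM in treated WT cells, and untreated they had 39.5 and 37.4 CPM in ubp16, 32.0 and 31.1 CPM in ubp8 and 31.7 and 26.04 CPM in WT. Both sums were highest in ubp16. In treated cells 4 of 5 M-cell and 2 of 3 P-cell markers were called higher in ubp16 than in WT, beside 28.7% of all genes. In untreated cells 4 of 5 M-cell markers were called higher in ubp16 than in WT (median 2.11), beside 14.3% of all genes. For ubp8 over WT it was 3 of 5 (1.22), beside 15.1%, and for ubp16 over ubp8 4 of 5 (0.90), beside 27.4%. Of the 3 P-cell markers, 1 was called higher in untreated ubp16 than in WT and none in ubp8 than in WT. Again 1 of the 3 was called higher in untreated ubp16 than in ubp8, with a median of -0.21. No marker was at 0 in any library. Their part in the differences of the iron genes was not tested.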

How the data were processed

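RNA-seq libraries were made from polyA RNA with a stranded mRNA kit after hot phenol extraction, per the labels' protocols. The authors deposited raw counts of reads per gene, and STAR, HTSeq, Trimmomatic, FastQC and DESeq2 are listed, with neither versions nor roles, per the submitters' processing notes. The genome build, annotation and strand setting are not given in the sources used here. Names, exon lengths, neighbours and sequences came from RefSeq ASM294v3, which matched 12602 of 12683 identifiers.

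The deposited counts were fitted with edgeR 4.0.16 in R 4.3.3 (filterByExpr, TMM, quasi-likelihood fit of 1 mean per group over all 12 libraries, 6 residual degrees of freedom). Genes were called at a Benjamini-Hochberg adjusted p under 0.05 over 8166 genes, in each of 12 comparisons. SE are the size of the log2 change divided by the square root of F, which is rough where counts are few, as for shu1 in untreated WT. Values joined by "and" within a group are its 2 libraries, replicate 1 first. Alternatives were median-of-ratios factors, library totals, no filter on low counts, genes averaging 50 counts or more, coding genes only, the compared groups' libraries only, a replicate block, DESeq2 1.42.0, limma 3.58.1 (voom) and each library left out. The genes, lists and tests were chosen with earlier results of these data known. Named were the 10 genes, ubp8 and ubp16, regulators, other uptake genes and neighbours, and the largest called changes of other lists, of which examples are given.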

Additional observations from a re-analysis of the deposited data

Results flagged for a closer look

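Responses that differed between strains in the interaction test are collected here, as log2 differences of the response. Of the 30 differences computed for the 10 genes, 12 were called. For ubp16 over WT they were -1.09 for fep1, 1.22 for fio1, 0.98 for fip1, 0.81 for str2, 4.08 for str3, 0.61 for sib1 and 0.53 for sib2. For ubp8 over WT the called difference was 1.69, for str3. For ubp16 over ubp8 they were -0.83 for fep1, 0.75 for fio1, 2.39 for str3 and 1.14 for sib1. Those of fep1, fio1, str2 and str3 for ubp16 over WT, and of str3 and sib1 for ubp16 over ubp8, passed in each alternative fit and without any 1 library.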

How the results depend on the processing

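Of 1080 single-gene values under other settings, 963 stayed on the same side of the threshold, and 59 lost and 57 gained a call. A called value reversed in 1 case, str2 in the ubp8 response, at -0.003 with library totals. Changes of sign in values called in neither fit were not counted as reversals. Without 1 library, 509 of 600 stayed on the same side, 74 lost and 17 gained a call, and none reversed by this rule. Library totals moved the median of all genes by over 0.1 in most comparisons, for example to -0.30, -0.38 and -0.23 in the ubp16, ubp8 and WT responses and to 0.12 and 0.28 for untreated ubp16 and ubp8 against WT.

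Counts of called genes moved over 1.5 times in the following fits, and the cause was not tested. Untreated ubp16 against WT had 5 in place of 8 with coding genes only, with the compared groups' libraries only, in DESeq2 and in limma-voom. Untreated ubp8 against WT had 6 in place of 3 with library totals, 8 with no filter and 5 with the replicate block. Untreated ubp16 against ubp8 had 8 in place of 4 with no filter. The ubp8 interaction had 0 in place of 1 with library totals, genes averaging 50 counts or more, coding genes only, DESeq2 and limma-voom, 3 with no filter, and 2 with the replicate block and with the compared groups' libraries only. The interaction of ubp16 over ubp8 had 7 in place of 4 with no filter.

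Leaving out each library gave 8 to 10 calls in the ubp16, 6 to 8 in the ubp8 and 6 to 7 in the WT response. It gave 4 to 8 for untreated ubp16 against WT, 1 to 5 for untreated ubp8 against WT and 1 to 6 for untreated ubp16 against ubp8. In treated cells it gave 10 for ubp16 against WT, 5 to 6 for ubp8 against WT and 7 to 10 for ubp16 against ubp8. The interactions had 4 to 7, 0 to 1 and 2 to 7.

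Replicate numbers were not taken to pair the samples, since no label ties them and deviations correlated at -0.183 to 0.456 over 15 pairs of groups, 8 of them above 0.1. Treated and untreated libraries of a strain correlated at 0.295 in ubp16, 0.313 in ubp8 and 0.249 in WT. The replicate block changed 9 of 120 single-gene calls, all gains. Depth limited shu1 most, with 6 counts in untreated WT.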
